A study of Homo sapiens with 4 samples.

Results

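The genes described here are noncoding hosts of small nucleolar RNAs (snoRNAs): GAS5, SNHG1, SNHG3, SNHG5, SNHG6, SNHG7, SNHG8, SNHG12, SNHG15 and SNHG16. They were chosen by symbol, from a list of 10 symbols, among the 23228 gene rows of the count tables. Of the 10 symbols, 8 were rows of the tables. The other 2 were present under earlier names, SNHG15 as C7orf40 and SNHG16 as LOC100507246, and are described beside the 8 and counted apart from them.

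A noncoding snoRNA host gene is transcribed by RNA polymerase II and spliced. Its snoRNAs are cut from the introns, bound by box C/D or H/ACA proteins, and guide methylation or pseudouridylation of ribosomal RNA. The spliced exons encode no known protein. In GAS5 and several of its relatives the RNA starts with a tract of pyrimidines, the 5′ terminal oligopyrimidine (TOP) motif that is also found on messenger RNAs of ribosomal proteins. Such RNAs load on ribosomes and are degraded by nonsense-mediated decay, so the level of the spliced host RNA depends on its translation as well as on its transcription. GAS5 accumulates when growth of cells is arrested, and several SNHG genes have been studied in tumours.

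RNA sequencing was done on Daoy cells, an established human medulloblastoma line. The cells carried a lentiviral control shRNA (2 libraries) or a lentiviral shRNA against PELP1 (2 libraries), and all 4 libraries came from cells that stably expressed an shRNA. PELP1 is a scaffold protein that acts with nuclear receptors and belongs to a nucleolar complex required for ribosome maturation. The labels give no sequence or number of shRNAs against PELP1, so effects of the shRNA on other targets cannot be told apart from those of PELP1 loss. They also do not say whether the duplicates were separate cultures, and every p-value given here measures the spread among the 4 libraries alone, part or all of which may be technical.

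PELP1 itself stood at 168 and 185 CPM (CPM, a count scaled by TMM to the size of its library) in the control libraries and at 55.6 and 49.7 CPM in the PELP1 shRNA libraries. That is 29.8% of the control level, a log2 fold change of −1.75 ± 0.05 (standard error, SE). Libraries held 24052542 to 29221640 counts in genes. Marker lists were read in CPM without TMM. The 9 markers of the cerebellar granule lineage summed to 61.5 and 63.0 in the controls and 78.2 and 79.2 with the PELP1 shRNA, with ZIC1, ZIC2 and PAX6 in all 4 libraries, while ATOH1, NEUROD1 and BARHL1, which define granule precursors and neurons, had 0 to 6 counts. The 3 neural progenitor markers, nearly all of it VIM, summed to 5340 and 5438 against 4036 and 4024. VIM and SOX2 were below the controls and NES above them, at 6.69 and 3.49 against 7.87 and 6.91. Of 3 leukocyte markers, PTPRC and CD3E had 0 to 9 counts, but CD68, which many other cells also express, stood at 55.8 to 59.9 CPM, and the 3 together at 56.0 to 57.2 against 59.9 to 60.2. The 3 endothelial markers summed to 1.38 and 2.16 against 3.51 and 4.03, with PECAM1 and VWF above the controls and CDH5 below them, and the hepatocyte marker ALB had 0 counts. The part of these shifts in the results below was not tested.

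The sequences around the starts of several hosts are shown first, since a pyrimidine tract at the start is known for GAS5 and several of its relatives. Each line gives 100 bases, 50 before the annotated start and 50 from it on, read 5′ to 3′ with GRCh37 coordinates. Capitals mark a run of at least 5 pyrimidines that opens with C within 10 bases of the start. GAS5, SNHG12, SNHG5 and SNHG8 fell with the PELP1 shRNA and held such a run at the start shown, and SNHG1 fell and did not hold one at the start shown. ZFAS1, another noncoding host, fell, while DANCR and SNHG29 rose, and all 3 held one.
GAS5 (chr1:173837078-173837177, minus strand): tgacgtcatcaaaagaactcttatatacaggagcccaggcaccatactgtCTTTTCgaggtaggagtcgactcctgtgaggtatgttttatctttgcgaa
SNHG12 (chr1:28908336-28908435, minus strand): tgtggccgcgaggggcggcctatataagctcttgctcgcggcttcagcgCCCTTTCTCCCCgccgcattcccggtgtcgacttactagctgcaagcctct
SNHG5 (chr6:86388402-86388501, minus strand): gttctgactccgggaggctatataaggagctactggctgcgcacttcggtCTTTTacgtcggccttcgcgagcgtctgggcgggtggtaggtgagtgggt
SNHG8 (chr4:119199867-119199966, plus strand): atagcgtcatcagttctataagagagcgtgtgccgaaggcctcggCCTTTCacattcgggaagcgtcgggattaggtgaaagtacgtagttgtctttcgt
SNHG1 (chr11:62623308-62623407, minus strand): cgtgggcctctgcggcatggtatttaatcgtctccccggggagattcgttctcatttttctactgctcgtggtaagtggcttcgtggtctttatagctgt
ZFAS1 (chr20:47895129-47895228, plus strand): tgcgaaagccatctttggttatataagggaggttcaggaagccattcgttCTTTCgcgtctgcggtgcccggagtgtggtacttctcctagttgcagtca
DANCR (chr4:53578511-53578610, plus strand): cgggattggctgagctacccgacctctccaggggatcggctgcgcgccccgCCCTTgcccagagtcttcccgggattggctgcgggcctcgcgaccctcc
SNHG29 (chr17:16342301-16342400, plus strand): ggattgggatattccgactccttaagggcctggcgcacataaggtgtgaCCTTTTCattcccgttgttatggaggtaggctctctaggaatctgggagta
The windows of GAS5 and SNHG29 start from the main GENCODE transcript and the others from the RefSeq start, matched base for base to GRCh37. RefSeq promoters were listed for 8 of the 10 symbols, and 5 of those 8 had the run, against 5 of 9 listed other noncoding hosts and 31.4% of 35116 promoters. The choice of start matters. The RefSeq start of GAS5 lies upstream of the window shown and has no run there, whereas the GENCODE start is the first base of CTTTTC. SNHG29 likewise has a run at the GENCODE start and none at the RefSeq start, and SNHG1 has one of 5 bases 7 bases before its GENCODE start. SNHG5 goes the other way, with the run shown at the RefSeq start and none at the GENCODE start. Over the GENCODE starts searched, 6 of 9 members and 5 of 10 other noncoding hosts held a run. SNHG3 and SNHG15, which fell as well, are not shown. SNHG3 held no run at either start, and SNHG15 held none at its GENCODE start. SNHG7 and SNHG16 also fell, are not shown, and held a run at both starts. SNHG6 was not searched. Within the RefSeq promoters, 250 bases before to 50 after the start, the E-box CACGTG was found in 1 of 8 members (SNHG7) and in 7.26% of all promoters. The cyclic AMP response element TGACGTCA was in 0 of 8 and in 1.85% of all, and TATAAA was in 2 of 8 (SNHG1 and SNHG7) and in 11.5% of all. In the SNHG1 window shown, the TATAAA match lies after the start and on the other strand. In SNHG7 it lies before the start on the strand of the gene. In the GENCODE window of GAS5 the first 8 bases are tgacgtca, a match found in 0.777% of promoter windows of 100 bases. Motifs were searched on both strands, the pyrimidine run on the strand of the gene.

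All 8 members were lower with the PELP1 shRNA. Each passed the false discovery rate (FDR) threshold of 0.05 in edgeR's quasi-likelihood test with Benjamini-Hochberg adjustment over 14972 genes, and in each both PELP1 shRNA libraries lay below both control libraries. SNHG15 and SNHG16, under their earlier names, were lower as well, which makes 10 of 10. These calls rest on a biological coefficient of variation of 2.99%, estimated from the duplicates. With an assumed 20%, 1 of the 8 passed (SNHG12). The change was broad in these cells: 58.1% of all genes passed the threshold, 28.6% higher and 29.5% lower, and 38.7% had both PELP1 shRNA libraries below both controls. The median log2 fold change was −0.62 over the 8 members, −0.52 over all 10, and 0.00 over all genes tested. Against a 1.5-fold change, 3 of the 8 passed (SNHG1, SNHG7 and SNHG12), while 4.9% of all genes did so in that direction. In bulk RNA, fewer cells that express a gene and less of its RNA per cell cannot be told apart.

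**Figure D1:**
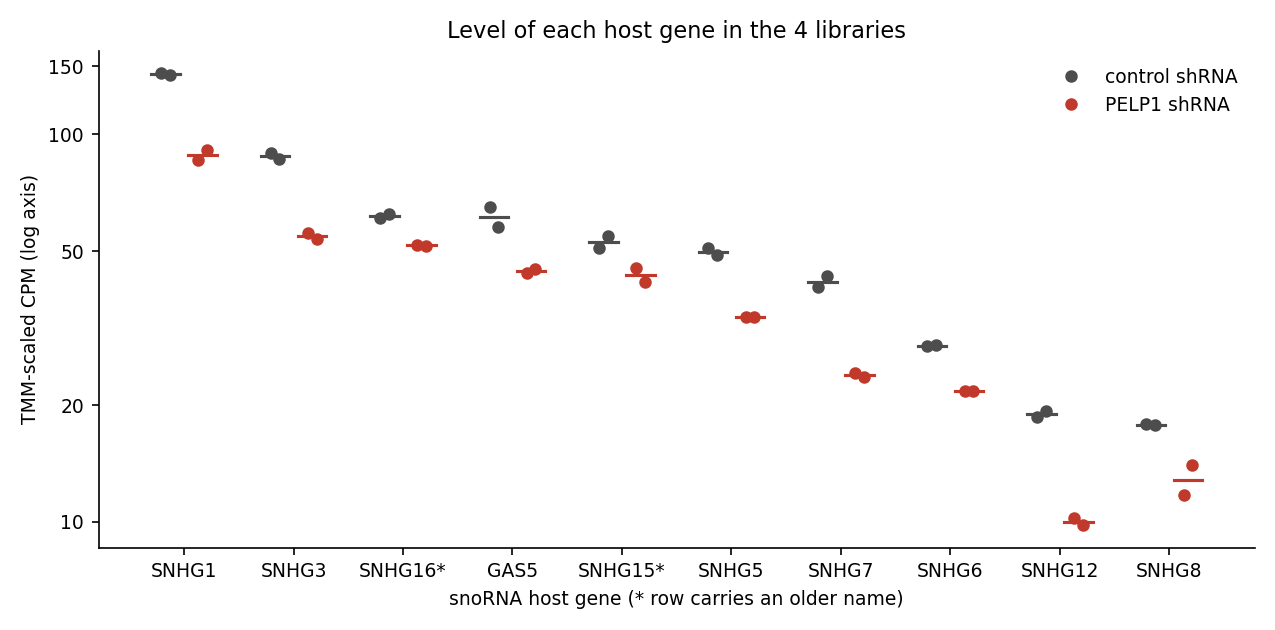
Level of the 10 host genes in TMM-scaled CPM (log axis) in each of the 4 libraries. Points are libraries, short lines are group means, and an asterisk marks a row found under an earlier name. For every gene both PELP1 shRNA libraries lie below both control libraries, with SNHG1 highest and SNHG12 and SNHG8 lowest.

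SNHG1 hosts a series of box C/D snoRNAs and was the most abundant of the 10 in counts. It lies on the minus strand of chromosome 11 (GRCh37, 62619450 to 62623425). Its level was 144 and 142 CPM with the control shRNA and 86.0 and 91.3 CPM with the PELP1 shRNA. Both PELP1 shRNA libraries were far below the controls, by more than the distance within either pair. The level was 62.0% of the control, or −0.69 ± 0.05 on the log2 scale (edgeR FDR = 6.0e-21). SNHG3, which hosts the H/ACA RNAs SNORA73A and SNORA73B, lies on the plus strand of chromosome 1 (28832492 to 28837404). It measured 89.4 and 86.4 CPM in the controls and 55.7 and 53.8 CPM with the PELP1 shRNA, again without overlap. Its fall to 62.3% of the control (log2 fold change −0.68 ± 0.05, edgeR FDR = 4.4e-18) missed the test against a 1.5-fold change (edgeR FDR = 0.081), whereas SNHG1 passed it (edgeR FDR = 0.031).

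The largest proportional falls were those of SNHG12 and SNHG7. SNHG12, host of 4 snoRNAs with rows here, lies on the minus strand of chromosome 1 (28905050 to 28909644), on the strand opposite to SNHG3 and not far from it. Raw counts were 436 and 497 for the controls, then 308 and 270 under the PELP1 shRNA, or 18.7 and 19.3 CPM against 10.2 and 9.80 CPM. The pairs were tight and well apart. The level with the PELP1 shRNA was 52.7% of the control (log2 fold change −0.92 ± 0.10, edgeR FDR = 6.3e-13, and 0.0011 against a 1.5-fold change). SNHG7, on the minus strand of chromosome 9 (139615818 to 139622636), hosts H/ACA RNAs. It measured 40.4 and 43.0 CPM in the controls and 24.2 and 23.6 CPM with the PELP1 shRNA. It came to 57.3% of the control (−0.80 ± 0.07 on the log2 scale, edgeR FDR = 6.8e-16, and 0.0036 against a 1.5-fold change).

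GAS5, known for its many intronic box C/D snoRNAs and for binding to the glucocorticoid receptor, lies on the minus strand of chromosome 1 (173827697 to 173838020). It measured 65.1 and 57.7 CPM in the controls and 43.98 and 45.0 CPM with the PELP1 shRNA. The 2 controls differed more than in most other members, yet the lower of them was above both PELP1 shRNA libraries. The level was 72.5% of the control (log2 fold change −0.46 ± 0.06, edgeR FDR = 6.7e-10), and the estimate ran from −0.55 to −0.38 as each library was left out. SNHG5, host of SNORD50A and SNORD50B on the minus strand of chromosome 6 (86360209 to 86388650), measured 50.8 and 48.7 CPM in the controls and 33.7 and 33.8 CPM with the PELP1 shRNA. The PELP1 shRNA pair was nearly identical, and the groups were well apart. It came to 67.9% of the control (−0.56 ± 0.06 on the log2 scale, edgeR FDR = 9.6e-12).

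SNHG6, host of SNORD87, measured 28.5 and 28.6 CPM in the controls and 21.8 and 21.7 CPM with the PELP1 shRNA. Each pair was close to equal, so a modest difference, to 76.3% of the control, was separated (log2 fold change −0.39 ± 0.08, edgeR FDR = 1.2e-05). SNHG8, host of SNORA24 on the plus strand of chromosome 4 (119199858 to 119206471), measured 17.8 CPM in both controls and 11.7 and 14.0 CPM with the PELP1 shRNA. Here the PELP1 shRNA libraries were the ones that differed. It came to 72.0% of the control (−0.47 ± 0.09, edgeR FDR = 1.8e-05), and to a log2 fold change of −0.34 without PELP1 shRNA replicate 1. In the main GENCODE transcripts, 1488 exonic bases of SNHG6, 1094 of SNHG7, 2487 of SNHG8 and 8 of SNHG12 overlap exons on the other strand. The strand setting of the read counting is not given in the sources used here, so reads of SNHG6, SNHG7 and SNHG8 cannot be told apart from those of the antisense transcripts.

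The 2 genes under earlier names had the smallest changes of the 10. SNHG15 (chromosome 7, 45022618 to 45026560, minus strand) measured 51.0 and 54.8 CPM in the controls and 45.2 and 41.7 CPM with the PELP1 shRNA. It came to 82.1% of the control (−0.28 ± 0.06, edgeR FDR = 4.9e-05). SNHG16 (chromosome 17, 74553809 to 74667067, plus strand) measured 61.0 and 62.4 CPM against 51.9 and 51.6 CPM, or 83.8% of the control (−0.25 ± 0.06, edgeR FDR = 7.4e-05). In neither gene did the groups overlap, but with an assumed biological coefficient of variation of 10% both calls were lost.

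Summed over the 8 members, the level was 449 ± 7.72 CPM (standard deviation, SD, n = 2) in the controls against 290 ± 4.01 CPM (SD, n = 2) under the PELP1 shRNA, or 64.6% of the control. In CPM, the drop was largest for SNHG1, 54.3, followed by SNHG3 with 33.2, and smallest for SNHG8, 4.95. As a share of all counts in genes, the 8 members held 0.0442% (95% Wilson interval 0.0433 to 0.0450) and 0.0429% (0.0421 to 0.0436) in the controls. With the PELP1 shRNA they held 0.0297% (0.0290 to 0.0303) and 0.0302% (0.0295 to 0.0308). The intervals of the groups did not overlap. They cover counting error only.

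A level compared between genes has to be read per length. Per kilobase of the main GENCODE transcript, the control mean was 123 CPM for SNHG1, 79.9 for GAS5, 40.0 for SNHG3, 37.8 for SNHG5, 17.7 for SNHG7, 15.7 for SNHG6, 10.2 for SNHG12 and 2.89 for SNHG8. It was 124 for SNHG16 and 17.6 for SNHG15. The control libraries of SNHG16 and SNHG1 overlapped on this scale, as did those of SNHG7 and SNHG15, so neither pair has an order. The order holds for these transcript models only. With the shortest transcript of GENCODE's basic set, SNHG8 came to 36.7 and GAS5 to 144 CPM per kilobase. For SNHG1 that transcript is longer than the main one, 1735 against 1162 bases. The annotation used for counting is not given in the sources used here.

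Over the 4 libraries, the 3 genes whose deviations lay nearest to the median deviation of the 10 members were RAB13, OSBPL10 and SMURF2, among 11315 genes compared. The Euclidean distance on the log2 scale was 0.0141, 0.0186 and 0.0188. RAB13, a small GTPase, measured 99.9 and 94.6 CPM in the controls and 65.7 and 67.5 CPM with the PELP1 shRNA. Likeness over 4 libraries in 2 groups rests almost entirely on the one difference between the groups.

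Other noncoding hosts moved in both directions. Of 10 with a row, 3 were lower (30.0%), 3 were higher (30.0%) and 4 did not pass the threshold, beside 29.5% lower and 28.6% higher over all genes. These shares are those of the background, and the median log2 fold change was 0.07. ZFAS1, host of C/D snoRNAs and found as ZNFX1-AS1, measured 58.8 and 52.5 CPM in the controls and 35.8 and 36.1 CPM with the PELP1 shRNA (−0.63 ± 0.06, edgeR FDR = 1.2e-13). Its fold change was close to those of SNHG1 and SNHG3, and its groups did not overlap. SNHG17 (−0.26, edgeR FDR = 0.018) and EPB41L4A-AS1 (−0.39, edgeR FDR = 0.0044) were lower too, but their calls were lost without control replicate 2, and without PELP1 shRNA replicate 2 (SNHG17) or replicate 1 (EPB41L4A-AS1). Under DESeq2, 1 of these 10 hosts was called lower. In the main GENCODE transcripts, 2781 exonic bases of ZFAS1, 2200 of EPB41L4A-AS1, 1076 of DANCR and 111 of SNHG10 overlap exons on the other strand. Reads of these hosts likewise cannot be told apart from those of the antisense transcripts.

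DANCR, found as KIAA0114, rose from 20.8 and 20.9 CPM in the controls to 27.8 and 31.5 CPM (0.50 ± 0.08, edgeR FDR = 1e-07). SNHG20, found as NCRNA00338, rose from 11.7 and 10.8 CPM to 15.5 and 14.3 CPM (0.41 ± 0.10, edgeR FDR = 0.00035). SNHG29, found as NCRNA00188 and the most abundant noncoding host in counts, rose from 322 and 319 CPM to 351 and 375 CPM (0.18 ± 0.04, edgeR FDR = 2.8e-05). None of these 3 overlapped between the groups, which adds little for genes that passed the test on the same libraries. The share of all genes above the controls without overlap was not taken. SNHG4 (−0.02, edgeR FDR = 0.89), SNHG10 (0.16, edgeR FDR = 0.14) and SNHG11 (0.23, edgeR FDR = 0.061) did not pass, and neither did SNHG9 (−0.38, edgeR FDR = 0.25), which was at 0.980 to 1.55 CPM. With upper-quartile scaling or library size alone, SNHG10 and SNHG11 also passed as higher, and SNHG17 lost its call as lower. Either scaling gave 5 of the other hosts higher and 2 lower. Summed over all 20 noncoding hosts, the level with the PELP1 shRNA was 85.9% of the control.

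**Figure D2:**
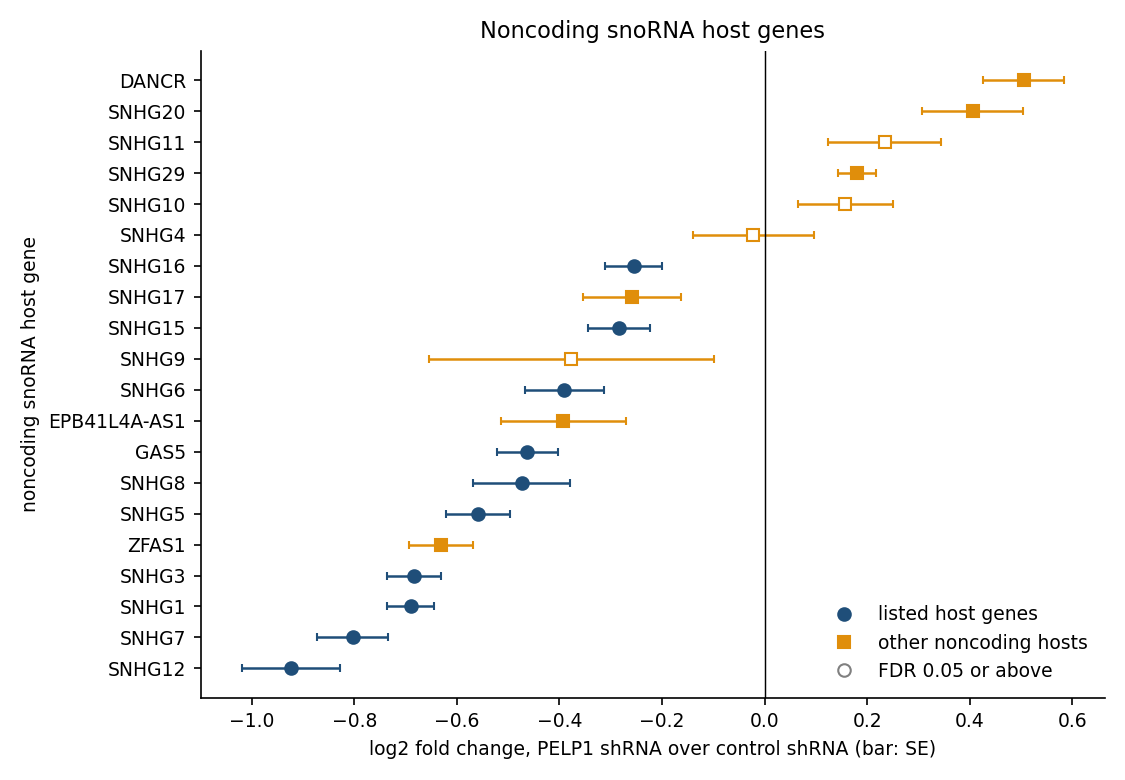
Log2 fold change with its standard error for 20 noncoding snoRNA hosts, sorted by value. Circles are the 10 listed genes, squares the other noncoding hosts, and open symbols did not pass the FDR threshold. All circles lie left of 0, from SNHG12 at −0.92 to SNHG16 at −0.25, and the squares run from ZFAS1 at −0.63 to DANCR at 0.50.

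The snoRNAs have rows of their own, which were read beside those of their hosts. Rows were assigned to hosts by RefSeq span alone, and a place in an intron was read only for SNORD78. By RefSeq, 28 rows named for snoRNAs lie inside the 8 members, and 26 of them, in 6 hosts, had enough counts to test. All 26 log2 fold changes were negative, with a median of −0.68, beside a median of 0.00 over all genes. GAS5 gave 10 of the 26 and SNHG1 gave 8, and rows of the same host are not separate observations. The 6 tested snoRNA rows of the other noncoding hosts were all negative too, with a median of −0.60. They include the 3 rows of SNHG29, whose host row rose. Of the 26, 13 passed the FDR threshold as lower, none as higher and 13 did not pass, beside 29.5% of all genes that were lower. In 23 of the 28 rows both PELP1 shRNA libraries lay below both controls, beside 38.7% of all genes tested. Of the 28, the 2 rows of SNHG7 had 0 counts in every library and could not separate. The counts were small and single calls were unstable. DESeq2 called 5 of the 26, leaving out PELP1 shRNA replicate 1 called 6, and leaving out control replicate 2 called 8.

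GAS5 carries 10 of these rows, all box C/D RNAs. One of them, SNORD78, is shown because it sits in an intron of the main transcript and its sequence could be read on the build of the files, with the box D motif CTGA in capitals.
SNORD78 (chr1:173834760-173834824, minus strand): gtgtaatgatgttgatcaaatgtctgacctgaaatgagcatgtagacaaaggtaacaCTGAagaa
SNORD78 had 20 and 29 counts in the controls and 13 and 14 with the PELP1 shRNA, and both of the latter were lower (−1.08 ± 0.37, edgeR FDR = 0.011). SNORD81 had 64 and 60 counts against 28 and 38 (−1.14 ± 0.25, edgeR FDR = 8.2e-05), and SNORD79 had 72 and 73 against 50 and 50 (−0.77 ± 0.21, edgeR FDR = 0.0015). SNORD76 had 99 and 117 counts against 91 and 70 (−0.66 ± 0.17, edgeR FDR = 0.00093). These 4 of the 10 rows passed as lower, beside 29.5% of all genes. Groups did not overlap on the CPM scale in any of the 4, which adds little for rows that passed the test on the same libraries. Raw counts of libraries of different depth stand closer. SNORD47, the most counted of the 10 with 136 and 174 counts in the controls and 147 and 157 with the PELP1 shRNA, did not pass (−0.26 ± 0.14, edgeR FDR = 0.11). SNORD80 was the only one of the 10 whose groups overlapped, and its estimate was 0.03 with control replicate 2 left out.

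In SNHG1, 5 of 8 snoRNA rows passed as lower (SNORD22, SNORD25, SNORD26, SNORD27 and SNORD29), with log2 fold changes from −0.84 to −0.48. Over all genes, 29.5% passed as lower. All 8 rows of SNHG1 had both PELP1 shRNA libraries below both controls, beside 38.7% of all genes tested. SNORD22 had 71 and 95 counts against 65 and 63. In SNHG12 the H/ACA rows SNORA61 and SNORA44 passed. SNORA61 had 54 and 51 counts against 32 and 20 (−1.25 ± 0.27, edgeR FDR = 7.4e-05). SNORA16A (−0.87) and SNORD99 (−0.29) of the same gene did not pass. In SNHG5, SNORD50A passed with few counts, 19 and 14 against 7 and 11 (−1.10 ± 0.45, edgeR FDR = 0.034), and SNORD50B did not. SNORD87 of SNHG6 had 22 and 17 counts against 7 and 7 (−1.69 ± 0.46, edgeR FDR = 0.0012), the largest fold change of the 26. SNORA24 of SNHG8 had 18 and 16 counts against 15 and 13 and did not pass. SNORA9 of SNHG15 passed (−0.93, edgeR FDR = 0.0048). The 2 snoRNA rows of SNHG7, SNORA17 and SNORA43, had 0 counts in every library, and no row matched the 2 snoRNAs of SNHG3.

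**Figure D3:**
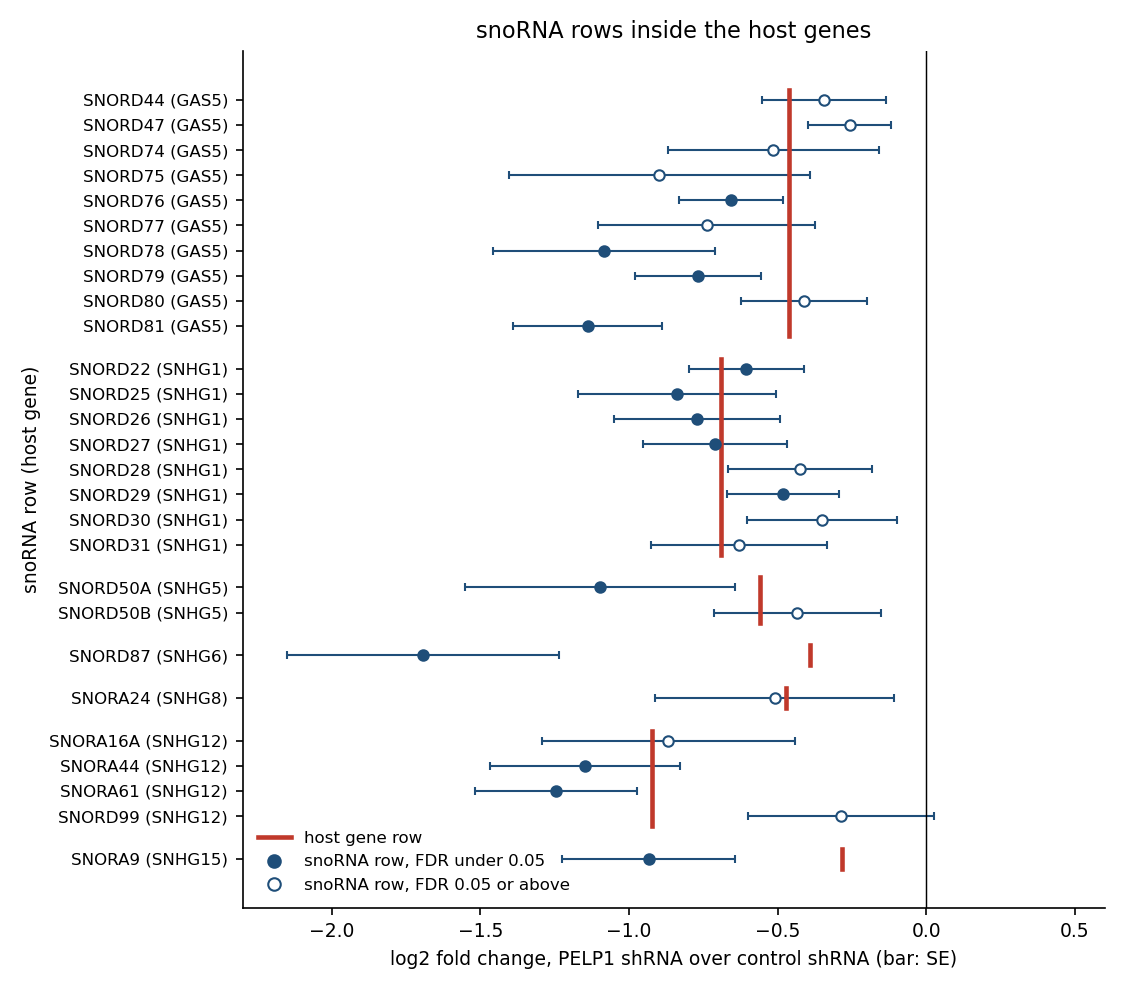
Log2 fold change with its standard error for each tested snoRNA row, grouped by host gene. Filled points passed the FDR threshold, and the vertical red bar in each group is the fold change of the host gene row. All points lie left of 0, and for GAS5, SNHG1 and SNHG12 they scatter on both sides of the value of the host.

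Summed per host, the snoRNA counts stood near the same percentage of the control as the host row in the 3 hosts with most of the rows. These sums have no test of their own. The 10 snoRNA rows of GAS5 summed to 571 and 665 counts in the controls and 493 and 499 with the PELP1 shRNA, 68.5% of the control after scaling, beside 72.5% for the GAS5 row. The 8 rows of SNHG1 summed to 405 and 449 against 334 and 340, or 67.3% beside 62.0% for the host. The 4 rows of SNHG12 summed to 124 and 149 against 88 and 81, or 52.8% beside 52.7%. Among hosts with 1 or 2 tested rows and few counts, SNHG5 had 65.6% beside 67.9% and SNHG8 69.6% beside 72.0%. Much lower sums than the host row were seen in SNHG6, with 30.3% beside 76.3%, and SNHG15, with 51.9% beside 82.1%. As a percentage of the host count, the snoRNA sum of GAS5 was 37.5 and 44.8 in the controls and 37.2 and 40.2 with the PELP1 shRNA, and that of SNHG12 was 28.4 and 30.0 against 28.6 and 30.0. In both hosts the groups overlapped. For SNHG1 it was 12.1 and 12.3 against 12.9 and 13.5, slightly higher with the PELP1 shRNA. In SNHG29, whose host row rose, the 3 snoRNA rows summed to 1.44 and 1.40% of the host in the controls and 1.12 and 0.919% with the PELP1 shRNA, and none of the 3 passed the threshold. The RNA was prepared with a column kit, which retains short RNAs poorly, so a snoRNA row can hold reads of unspliced host RNA as well as of the mature snoRNA. Which of them a read came from was not tested.

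**Figure D4:**
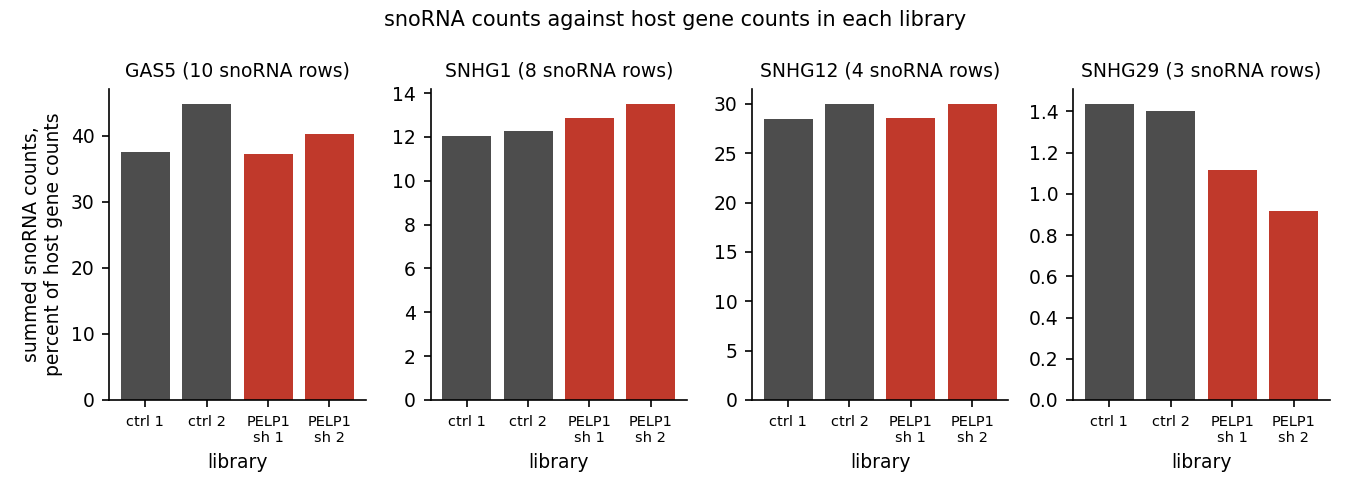
Summed snoRNA counts as a percentage of the host gene count in each library, for GAS5, SNHG1, SNHG12 and SNHG29. Each panel has its own axis from 0. Bars of the 2 groups are close to equal for GAS5 and SNHG12, slightly higher with the PELP1 shRNA for SNHG1, and lower with it for SNHG29.

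Some hosts share a start region with a protein-coding gene on the other strand. SLC3A2, the heavy chain of an amino acid transporter, starts 82 bases from SNHG1. It fell along with it, from 201 and 214 CPM in the controls to 142 and 138 CPM (−0.56 ± 0.04, edgeR FDR = 1.03e-18). ZBTB37, a zinc finger gene that starts 93 bases from GAS5, measured 3.68 and 4.003 CPM in the controls and 4.47 and 4.14 CPM with the PELP1 shRNA and did not pass (0.16 ± 0.16, edgeR FDR = 0.39). ZNFX1, 216 bases from ZFAS1, did not pass either (−0.11 ± 0.05, edgeR FDR = 0.065). RPS2, 69 bases from SNHG9, fell (−0.61 ± 0.04, edgeR FDR = 5e-20), and GLRX5, 408 bases from SNHG10, rose (0.22 ± 0.05, edgeR FDR = 0.00052).

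Many snoRNAs sit in introns of protein-coding genes, most of them for ribosomal proteins and translation factors. Of 57 such hosts tested, 36 were lower (63.2%), 7 higher (12.3%) and 14 missed the threshold, beside 29.5% lower and 28.6% higher over all genes. Their median log2 fold change was −0.20, against 0.00 over all genes. With library size alone in place of TMM, 29 were lower and 10 higher. RPL12 fell to 65.3% of the control (−0.61 ± 0.04), RPS2 to 65.3% (−0.61 ± 0.04) and WDR43, a factor of ribosome assembly, to 67.9% (−0.56 ± 0.04). TPT1, a TOP messenger RNA, rose to 155% (0.63 ± 0.04), against the direction of most of the list. RCC1, which lies downstream of SNHG3 on the same strand, fell to 75.6% (−0.40 ± 0.04). EIF4A1 and RPL21 had no count in any library and were not tested.

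The proteins of the mature snoRNA particles were mostly lower. Of 8 tested, 6 were lower (75.0%), none higher and 2 missed the threshold, beside 29.5% lower and 28.6% higher over all genes, and the median was −0.14. NOP56 fell to 81.3% (−0.30 ± 0.04), NOP58 to 83.6% (−0.26 ± 0.04), both of which are box C/D core proteins and snoRNA hosts themselves, and fibrillarin, FBL, the methyltransferase, to 89.5% (−0.16 ± 0.04). NHP2 of the H/ACA particle fell to 87.2%. Of 11 factors of particle assembly and intron debranching, 4 were higher (36.4%), 2 lower (18.2%) and 5 missed the threshold, beside 29.5% lower and 28.6% higher over all genes, and the median was 0.08. For 11 genes these shares are near the background. NUFIP1, which brings C/D proteins together, rose to 150% (0.58 ± 0.08), RUVBL1 to 141% and PIH1D1 to 128%, while NAF1, an H/ACA assembly factor, fell to 75.2%. With library size alone in place of TMM, 3 of the particle proteins were lower and 1 higher, and 8 of the assembly factors were higher.

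Spliced host RNAs are targets of nonsense-mediated decay, so the genes of that pathway were read alongside. Of 23 decay and exon junction factors, 7 were lower (30.4%), 5 higher (21.7%) and 11 missed the threshold, beside 29.5% lower and 28.6% higher over all genes. The share lower was that of the background, and the median was −0.04. SMG1, the kinase that phosphorylates UPF1, fell to 69.2% of the control (−0.53 ± 0.04), UPF1, the central helicase, to 80.4% (−0.32 ± 0.04), and GSPT1, a release factor, to 78.6%. DCP1B, of the decapping complex, rose to 131% (0.39 ± 0.08). With library size alone, 4 were lower and 9 higher. Of 9 messenger RNAs known as substrates of the pathway, 5 were lower (55.6%), 3 higher (33.3%) and 1 missed the threshold, beside 29.5% lower and 28.6% higher over all genes, and the median was −0.22. GADD45A fell to 34.1% (−1.55 ± 0.06), MAP3K14 to 50.1% (−0.996 ± 0.05), GADD45B to 65.8% (−0.60 ± 0.06) and TBL2 to 78.9%. GADD45A, GADD45B and MAP3K14 are also stress and NF-κB pathway genes.

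Translation of TOP RNAs is set by mTOR signalling, the 4E-binding proteins and LARP1. Of 15 such regulators, 6 were lower (40.0%), 4 higher (26.7%) and 5 missed the threshold, beside 29.5% lower and 28.6% higher over all genes, and the median was −0.08. For 15 genes these shares are near the background. MTOR fell to 75.3% (−0.41 ± 0.04), EIF4EBP1 to 70.8% (−0.50 ± 0.05) and LARP1, which binds the pyrimidine tract, to 82.1% (−0.29 ± 0.04). EIF4EBP2 rose to 144% (0.53 ± 0.04). Each gene named from these lists passed edgeR's quasi-likelihood test at the FDR threshold. Values are RNA levels, and protein, phosphorylation and translation were not measured.

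**Figure D5:**
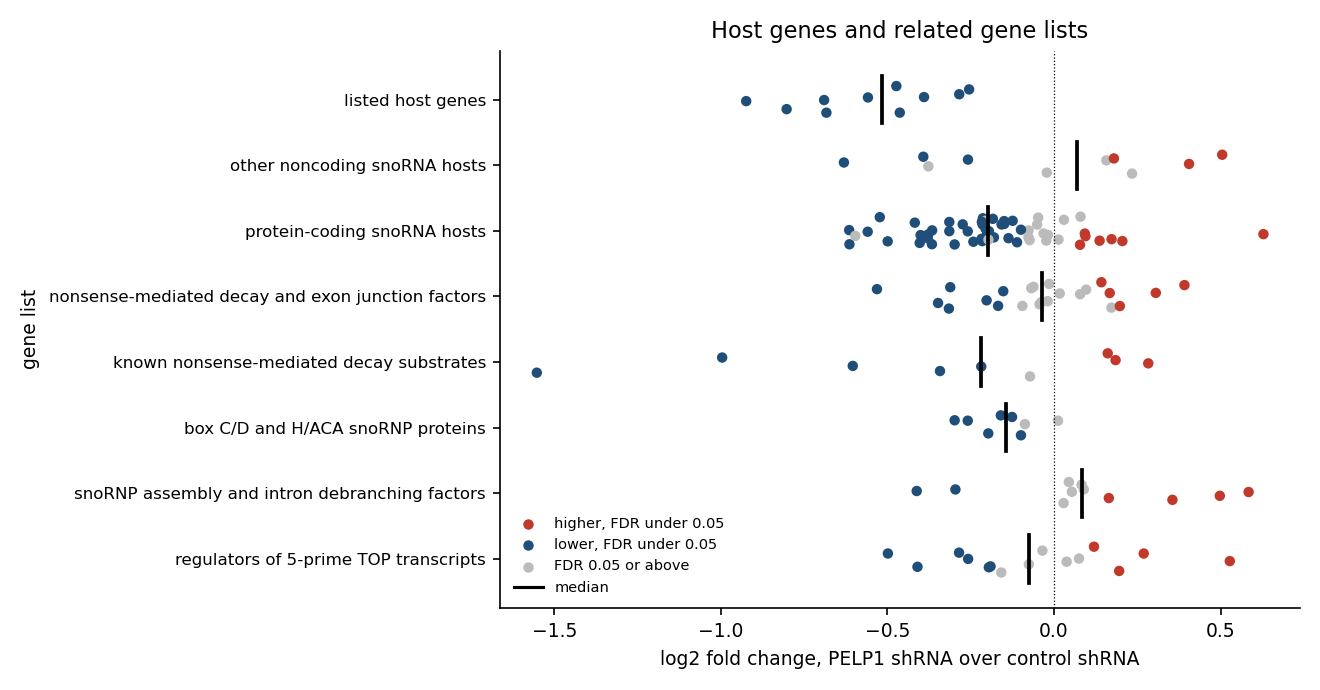
Log2 fold changes of the 10 listed host genes, the other noncoding hosts and 6 related gene lists. Each point is a gene, blue where lower and red where higher past the FDR threshold and grey otherwise, and black lines are medians, from −0.52 for the listed hosts to 0.08 for the assembly factors. The listed hosts are the group with blue points alone.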

How the data were processed

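For 4 libraries of Daoy cells, the authors deposited whole-number counts of reads for each gene symbol, with no scaling. Per the labels' protocols and the submitters' processing notes, total RNA was taken up on a column kit, libraries were made with a TruSeq total RNA kit and read as single-end reads, and the authors aligned with TopHat2 2.0.8b to hg19 and counted with HTSeq. Its annotation and strand setting were not given in the sources used here. Rows that name no gene were left out. They held 8.83% to 9.08% (no gene), 0.58% to 0.6% (ambiguous) and 29.38% to 30.82% (not unique) of each file. Reads shared by near-identical copies fall in the last.

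edgeR 4.0.16 in R 4.3.3 (quasi-likelihood test, robust, TMM factors 0.967 to 1.03, filterByExpr) was fitted to all 4 libraries, two-sided, with Benjamini-Hochberg adjustment over 14972 genes and an FDR threshold of 0.05. glmTreat tested against a 1.5-fold change. Levels are TMM-scaled CPM. The biological coefficient of variation was estimated at 2.99%. Replicate pairs differed by more than counting noise (chi-square per degree of freedom 2.47 and 2.37). Same-numbered libraries did not deviate together (correlation −0.154 over 11325 genes), so numbers were not used as pairs.

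Named genes were all members, PELP1, the other noncoding hosts, snoRNA rows inside members, neighbours within 2000 bases of a start on the other strand, and from each list up to 4 genes that passed the threshold, by size of change, at a mean of at least 5 CPM; RCC1 was added for its place beside SNHG3. The members and lists were chosen with earlier results of these data known, so their counts are descriptions. Locations came from a GENCODE annotation lifted to GRCh37, the build that hg19 names. The RefSeq tables are of GRCh38 and were used for names, for which snoRNAs lie in which host, and for promoter sequences. Alternatives were other scalings, filters and tools, assumed variation, a replicate block and leaving out each library.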

Additional observations from a re-analysis of the deposited data

How the results depend on the processing

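The 8 members stayed lower under every alternative scaling, filter, tool and block tried and with each library left out (8 in each). With an assumed biological coefficient of variation of 20%, 1 remained past the threshold (SNHG12; 1 of the 10 symbols as well), and against a 1.5-fold change 3 did (3 of 10). At 10%, all 8 and 8 of the 10 symbols passed. No member changed sign, and SNHG12 kept its call in all 16 alternatives. Over all genes, higher and lower calls numbered 2187 and 2176 at 10%, 685 and 640 at 20%, and 709 and 733 against 1.5-fold, compared with 4276 and 4424. Library size alone gave 5681 higher and 3305 lower and moved the median of all genes by 0.09 (log2). With the replicate block, 8 members were lower and all genes gave 4010 higher and 4151 lower. With the crossed pairing, added after seeing the data, the counts were 8, 4565 and 4719. Leaving out 1 library gave 3612 to 3726 higher and 3804 to 4031 lower. Where an arm was left with 1 library, its spread was taken from the other group. snoRNA rows inside the 8 members, 13 lower of 26, gave 4 at 20%, 3 against 1.5-fold and 5 with DESeq2, and the filter at 5 CPM left 1 row and 0 calls. Depth limits these rows: most hold under 100 counts per library.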
